A study of Saccharomyces cerevisiae with 8 samples.

Results

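The arrays of replicates 1 and 2 were compared with those of replicates 3 and 4 in an expression study of budding yeast, Saccharomyces cerevisiae, with the genotype as a block. All 8 arrays of the study entered the comparison, 4 a side: V81G 1, V81G 2, wild type 1 and wild type 2 against V81G 3, V81G 4, wild type 3 and wild type 4. They were chosen by replicate number alone, and each array's run sheet gives the same split: replicates 1 and 2 of both genotypes went through hybridization on a first day and replicates 3 and 4 on a second. These are called day 1 and day 2 here, and every difference is log2 of day 2 minus day 1. The cells were haploid strains derived from W303a, grown at 25 °C, the permissive temperature, into early log phase. In all of them the 2 native genes for the translation factor eIF5A, HYP2 and ANB1, are labelled as disrupted, and a plasmid supplied human EIF5A1 instead. The groups labelled V81G carried the temperature-sensitive point mutant of that protein and the groups labelled wild type the unaltered protein. The series design counts 4 isogenic strains a genotype, so strain, culture and hybridization day changed together between the pairs and cannot be told apart. No label gives a culture date or says which cells were frozen before extraction and which were not. The questions are which genes and functions differed between the pairs of arrays, and whether V81G and wild type differed in the same way.

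Yeast cultures differ most readily in how fast they grow and how much sugar is left. Rapid growth on glucose goes with high expression of the factors that assemble ribosomes in the nucleolus, and with low expression of the general stress genes, which include small heat shock proteins and the enzymes that store trehalose and glycogen. Both groups answer to nutrient signalling through TOR and protein kinase A, the stress genes through the activators Msn2 and Msn4. These programmes are background for the gene groups below and were not measured here.

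Intensities had been deposited on a linear scale, and log2 was taken. The median log2 intensity of the 8 arrays lay between 10.10 and 10.22. HYP2 measured 12.35, 11.97, 11.92 and 11.83 in V81G 1 to 4 and between 15.41 and 15.43 in the 4 wild-type arrays. ANB1 lay between 13.92 and 14.42 in all 8, and neither gene passed the test between days (adjusted p = 0.474 and 0.383 in limma). The wild-type values of HYP2 lay at the highest log2 intensity of the data, 15.43. A day difference of HYP2 in wild type could therefore be hidden. The upper quartile of log2 intensity lay between 11.37 and 11.50 in the 8 arrays. Both genes were thus bright in both genotypes although labelled as disrupted, and HYP2 was brightest in wild type. A probe set outside the disrupted part would not show a disruption, and the position of these probes was not analysed here. Of 7 genes specific to cells of mating type a, 4 had a mean log2 intensity under 9.03, the 25th percentile of all probe sets, against 1 of 4 genes specific to alpha cells. STE3, the receptor that alpha cells use, lay between 10.93 and 11.78 (mean 11.34) although the strains are labelled W303a. Means of the other alpha genes were 14.16 for MF(ALPHA)1, 12.28 for SAG1 and 8.98 for MF(ALPHA)2. Among the a genes MFA2 was as bright as STE3, at a mean of 11.55, with MFA1 at 10.45 and STE6 at 9.31. The markers of the 2 types were thus mixed. Bacterial hybridization spikes differed between days by -0.07 (exact permutation within genotype, two-sided p = 0.556, where 36 arrangements allow no p below 0.0556). For poly-A spikes the difference was -0.23 (exact permutation p = 0.111). The 3-prime minus 5-prime log2 difference of ACT1, a sign of RNA quality, was 1.39, 1.38, 1.40 and 1.17 in V81G 1 to 4 and 1.10, 1.04, 0.85 and 0.71 in wild type 1 to 4 (exact permutation p = 0.167). Its part in the results below was not tested.

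Arrays of one genotype differed more between days than within a day, and more so in V81G. Over 5656 genes the SD of the difference between V81G 1 and V81G 2 was 0.282, and 0.233 between V81G 3 and V81G 4, against 0.515 to 0.535 for the 4 pairs of V81G arrays from different days. For wild type 1 and 2 it was 0.304 and for wild type 3 and 4 it was 0.289, against 0.342 to 0.452 across the days. The fluidics station, the washing instrument named in the run sheets, also moved with the day. V81G 1 and 2 ran on station 2 and V81G 3 and 4 on station 1, so day and station cannot be told apart in V81G. In wild type, replicates 1, 2 and 3 ran on station 1 and replicate 4 on station 2.

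The day difference also followed the number of the probe set, which is part of its name on the array. With the 9275 probe sets cut into 40 bins by number, the bin medians of the V81G difference ran from -0.32 to 0.59 and those of the wild-type difference from -0.58 to 0.41. Both curves had the same form. In the bin of numbers 2802 to 3036 the medians were -0.32 in V81G and -0.58 in wild type, and in that of 3313 to 3552 they were 0.57 and 0.41. From there they fell towards 0, and in the last bin, 11205 to 11436, they were -0.16 and -0.25. Within a day, the medians of V81G 2 minus V81G 1 stayed between -0.09 and 0.13 and those of V81G 4 minus V81G 3 between -0.07 and 0.07. Wild type 2 minus wild type 1 reached 0.61 in the bin of numbers 2802 to 3036, and wild type 4 minus wild type 3 lay between -0.20 and 0.30. The layout of the array was not analysed here, and the cause was not tested. Results were therefore also computed after a position adjustment, in which the running median over 101 probe sets in order of number was taken from each array's deviation from its genotype's mean. This alternative was chosen after seeing the data.

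**Figure D1:**
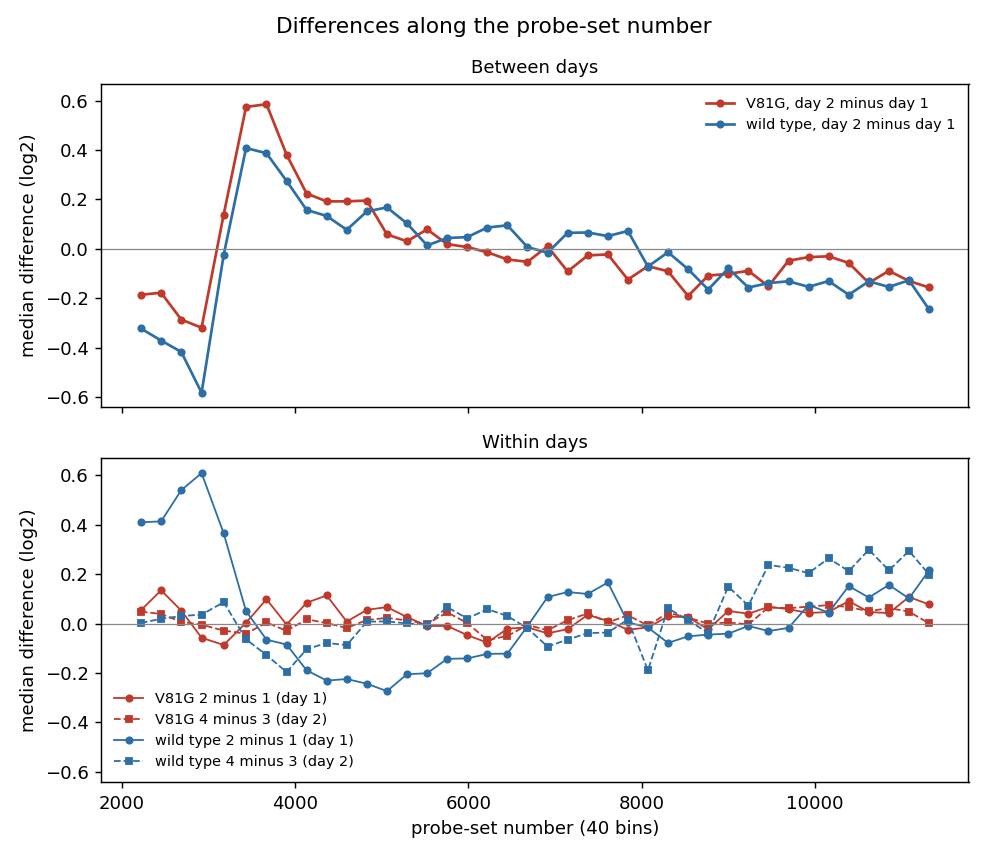
Median log2 difference in 40 bins of 231 or 232 probe sets along the probe-set number, between days for each genotype (top) and between 2 arrays of one genotype and day (bottom). Between days both genotypes jump from below -0.3 to above 0.4 after the bin of numbers 2802 to 3036, while within days such a step is seen only in wild type 2 minus wild type 1, and there it runs downwards.

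Pooled over the genotypes, 663 of 5656 genes differed between the days at an adjusted p under 0.05 (limma with Benjamini-Hochberg adjustment over 9275 probe sets; called below). Of these, 390 were higher on day 2, which is 6.9% of the genes tested, and 273 were lower, 4.83%. At least 2-fold differences were rare: 43 of the genes called higher and 22 of those called lower. Of the 663 genes, 641 had replicate pairs that did not overlap in either genotype, as did 14.6% of all genes with day 2 higher and 11.7% with day 2 lower. After the position adjustment 491 genes were called, 314 higher and 177 lower, and 401 genes were called both ways. The count leaned on the V81G arrays. Over probe sets it was 1194, and 134 without V81G 3, 267 without V81G 4, 583 without V81G 1, 594 without V81G 2 and 739 without wild type 3. Centring each array on its median moved the split of called probe sets from 62.7% higher to 74.5% higher.

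The largest rises were in ADA2, UTP23 and OLE1. For ADA2 the log2 intensities were 8.28 and 8.47 in V81G 1 and 2, 10.46 and 10.80 in V81G 3 and 4, 8.39 and 8.40 in wild type 1 and 2, and 10.28 and 10.77 in wild type 3 and 4. ADA2 encodes a subunit of the SAGA histone acetyltransferase complex and all its day 2 arrays stood far above all day 1 arrays. The difference was 2.19 ± 0.14 (SE, limma adjusted p = 0.000439), with 2.26 ± 0.20 in V81G and 2.13 ± 0.20 in wild type, and it stood at 2.20 after the position adjustment. UTP23 measured 10.86 and 11.23 in V81G 1 and 2 and 13.01 and 13.00 in V81G 3 and 4, against 11.20 and 11.15 in wild type 1 and 2 and 12.25 and 12.53 in wild type 3 and 4 (log2 intensity). UTP23, a factor of small-subunit ribosomal RNA processing, rose by 1.59 ± 0.17 (SE, limma adjusted p = 0.00471), and here too no day 2 array overlapped day 1. The log2 intensity of OLE1 was 11.54 and 11.77 in V81G 1 and 2, 14.00 and 13.86 in V81G 3 and 4, 13.52 and 13.39 in wild type 1 and 2, and 14.28 and 14.17 in wild type 3 and 4. OLE1 is the only fatty acid desaturase of yeast, and V81G 1 and 2 lay well below all other arrays. Its rise was 1.52 ± 0.27 (SE, limma adjusted p = 0.0131) over both genotypes.

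The other 7 rises of the 10 largest were AAH1, HXT4, FUI1, ECM13, YNCD0016C, SCW11 and INA1, between 1.33 and 1.51. In V81G FUI1 was at 9.88 and 10.03 on day 1 and at 11.48 and 11.48 on day 2, and in wild type at 9.86 and 9.70 and then at 11.18 and 10.93. FUI1, the uridine permease, rose by 1.40 ± 0.12 (SE, limma adjusted p = 0.00258), with 1.53 ± 0.15 in V81G and 1.27 ± 0.15 in wild type. Log2 intensities of HXT4 were 12.27 and 12.03 (day 1) and 13.20 and 13.10 (day 2) in V81G, and 10.26 and 9.96 (day 1) and 11.77 and 12.06 (day 2) in wild type. HXT4, a glucose transporter of a family whose members share sequence, was lower in wild type than in V81G on each day and rose by 1.40 ± 0.18 (SE, limma adjusted p = 0.00637). AAH1 went from 10.37 and 10.55 on day 1 to 12.51 and 11.72 on day 2 in V81G, and from 11.26 and 10.80 to 12.20 and 12.61 in wild type. AAH1, adenine deaminase of purine salvage, rose by 1.51 ± 0.20 (SE, limma adjusted p = 0.00638). YNCD0016C is annotated as a transfer RNA gene, a class with near-identical copies. Its difference of 1.34 (limma adjusted p = 0.0162) was 0.83 after the position adjustment (adjusted p = 0.085), and it was one of the 8 genes below that lost the call without V81G 3.

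The 10 largest falls were led by TSL1, PGM2 and HSP42. For TSL1 the log2 intensities were 13.59 and 13.74 in V81G 1 and 2, 11.15 and 11.30 in V81G 3 and 4, 13.40 and 13.27 in wild type 1 and 2, and 12.49 and 12.89 in wild type 3 and 4. TSL1, a subunit of the trehalose synthase complex, was lowest in V81G 3 and 4, and the wild-type pairs were separated by less. It fell by 1.54 ± 0.32 (SE, limma adjusted p = 0.0192) over both genotypes. PGM2 measured 13.60 and 13.74 in V81G 1 and 2 and 11.58 and 11.13 in V81G 3 and 4, against 13.53 and 13.46 in wild type 1 and 2 and 12.32 and 13.29 in wild type 3 and 4 (log2 intensity). PGM2, a phosphoglucomutase at the branch to storage sugars, fell by 1.50 ± 0.33 (SE, limma adjusted p = 0.0244) although wild type 4 lay only just below wild type 2. The log2 intensity of BTN2 was 11.56 and 12.03 in V81G 1 and 2, 10.44 and 10.43 in V81G 3 and 4, 11.39 and 11.19 in wild type 1 and 2, and 10.05 and 10.05 in wild type 3 and 4. BTN2, a chaperone that sorts misfolded proteins, fell within each genotype, by 1.36 ± 0.18 in V81G and by 1.24 ± 0.18 in wild type (interaction -0.12, limma adjusted p = 0.853). In V81G CRS5 was at 13.08 and 13.25 on day 1 and at 11.63 and 11.74 on day 2, and in wild type at 12.53 and 12.38 and then at 11.64 and 11.40. CRS5, a copper metallothionein, fell by 1.21 ± 0.14 (SE, limma adjusted p = 0.00565). The other 6 were HSP42, CYC7, APE1, SDS24, TMA10 and RTC3, with pooled falls of 1.20 to 1.41. All 6 fell more in V81G, and none was called in wild type. V81G and wild-type differences were -2.15 and -0.66 for HSP42, -2.22 and -0.30 for CYC7, and -1.57 and -0.91 for APE1. They were -1.61 and -0.86 for SDS24, -2.04 and -0.42 for TMA10, and -2.03 and -0.38 for RTC3. The interaction was called for CYC7 and RTC3 (limma adjusted p = 0.00716 and 0.0102). APE1 is a vacuolar aminopeptidase, and CYC7 encodes the second isoform of cytochrome c.

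Of these 20 genes, 19 kept their call after the position adjustment, all but YNCD0016C, and 12 kept it whichever array was left out. Without V81G 3 the calls of OLE1, YNCD0016C, RTC3, TMA10, CYC7, HSP42, PGM2 and TSL1 were lost, with adjusted p-values of at most 0.109 under any removal. TSL1 was 0.0629 and PGM2 0.0748 at their highest. No removal changed a direction.

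**Figure D2:**
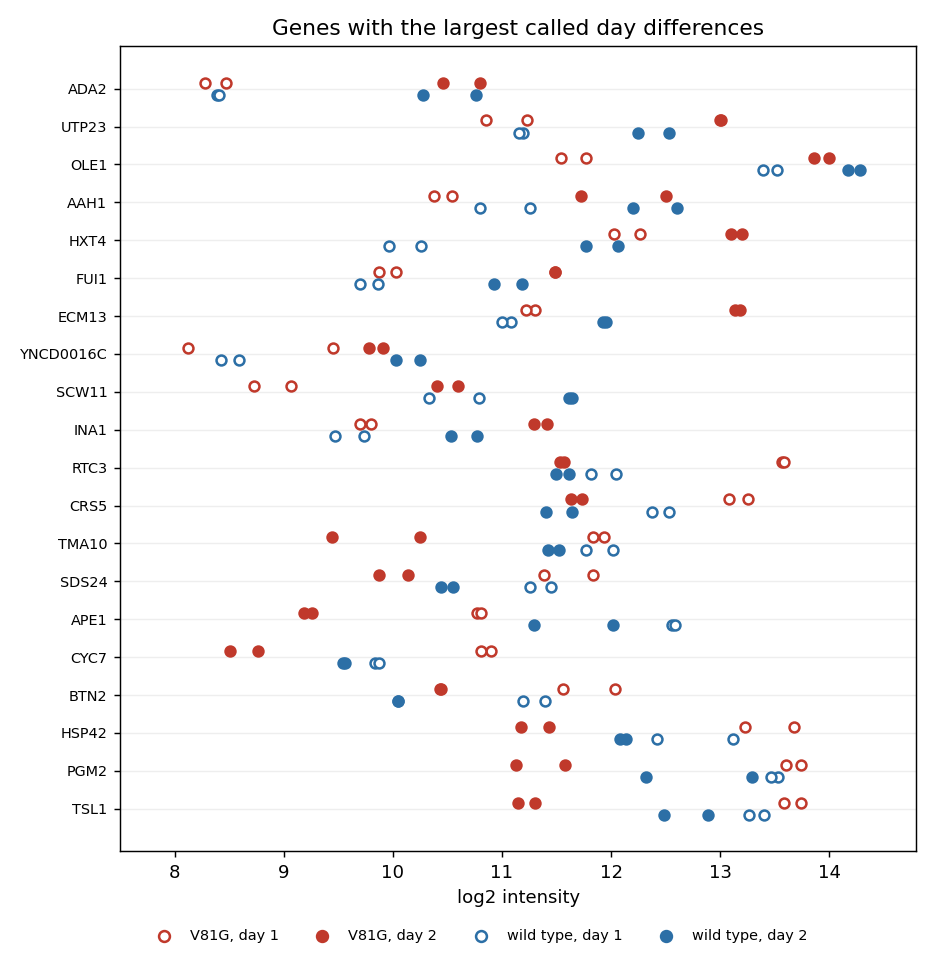
Log2 intensity of each array for the 10 largest rises (top) and 10 largest falls (bottom) among genes called over both genotypes, with open circles for day 1 and filled circles for day 2. The ADA2 values of both genotypes lie together, from 8.28 to 8.47 on day 1 and from 10.28 to 10.80 on day 2, whereas for TSL1 the V81G pairs lie farther apart than the wild-type pairs.

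Ribosome assembly factors were the group with the most calls. Of 87 measured members, 56 rose and none fell, against 6.9% and 4.83% of all genes, and 84 had a positive difference. The median difference was 0.55, with 0.67 in V81G and 0.52 in wild type, beside -0.03 over all genes. No member was called in the interaction. The list's median deviation from each gene's 8-array mean was -0.35 and -0.44 in V81G 1 and 2, 0.27 and 0.23 in V81G 3 and 4, -0.10 and -0.21 in wild type 1 and 2, and 0.22 and 0.39 in wild type 3 and 4. The pairs did not overlap in either genotype. After the position adjustment 52 members rose, at a median of 0.55. The count was 33 without V81G 1, 18 without V81G 3 and 27 without V81G 4, and between 41 and 52 without any other array.

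RRP12 measured 10.43 and 10.58 in V81G 1 and 2 and 12.08 and 12.31 in V81G 3 and 4, against 11.38 and 11.33 in wild type 1 and 2 and 12.25 and 12.29 in wild type 3 and 4 (log2 intensity). RRP12, which takes part in the export of pre-ribosomal subunits, rose by 1.30 ± 0.16 (SE, limma adjusted p = 0.00571). SSF1 went from 9.14 and 9.45 on day 1 to 10.79 and 10.95 on day 2 in V81G, and from 9.24 and 8.66 to 9.75 and 10.20 in wild type. SSF1 acts in the maturation of the large subunit, and it rose by 1.30 ± 0.19 (SE, limma adjusted p = 0.00874). Both were higher on day 2 in each genotype without overlap. NSR1, a nucleolin-like protein of the nucleolus, and NIP7, another large-subunit factor, were named after their values were seen. They rose by 1.15 and 1.03 (limma adjusted p = 0.00571 and 0.00881). RNA polymerases I and III, which make ribosomal and transfer RNA, rose in 8 of 19 subunits (1 without V81G 3, 4 without V81G 4) and fell in none. Their median was 0.29, and 6.9% of all genes were called higher. In V81G RPA34 was at 10.85 and 11.12 on day 1 and at 11.93 and 11.82 on day 2, and in wild type at 11.44 and 11.27 and then at 11.73 and 12.28. RPA34, a subunit of polymerase I, rose by 0.77 ± 0.15 (SE, limma adjusted p = 0.0161), and RPA43 by 0.68 ± 0.12 (SE, limma adjusted p = 0.0139). Cytosolic ribosomal proteins themselves moved little: 3 of 80 measured genes rose (6.9% of all genes did), none fell, and the median was 0.14. Of 30 measured translation factors 3 rose, at a median of 0.27. Both counts were 0 without V81G 2, V81G 3, V81G 4, wild type 2 or wild type 4, and 0 and 1 without V81G 1.

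**Figure D3:**
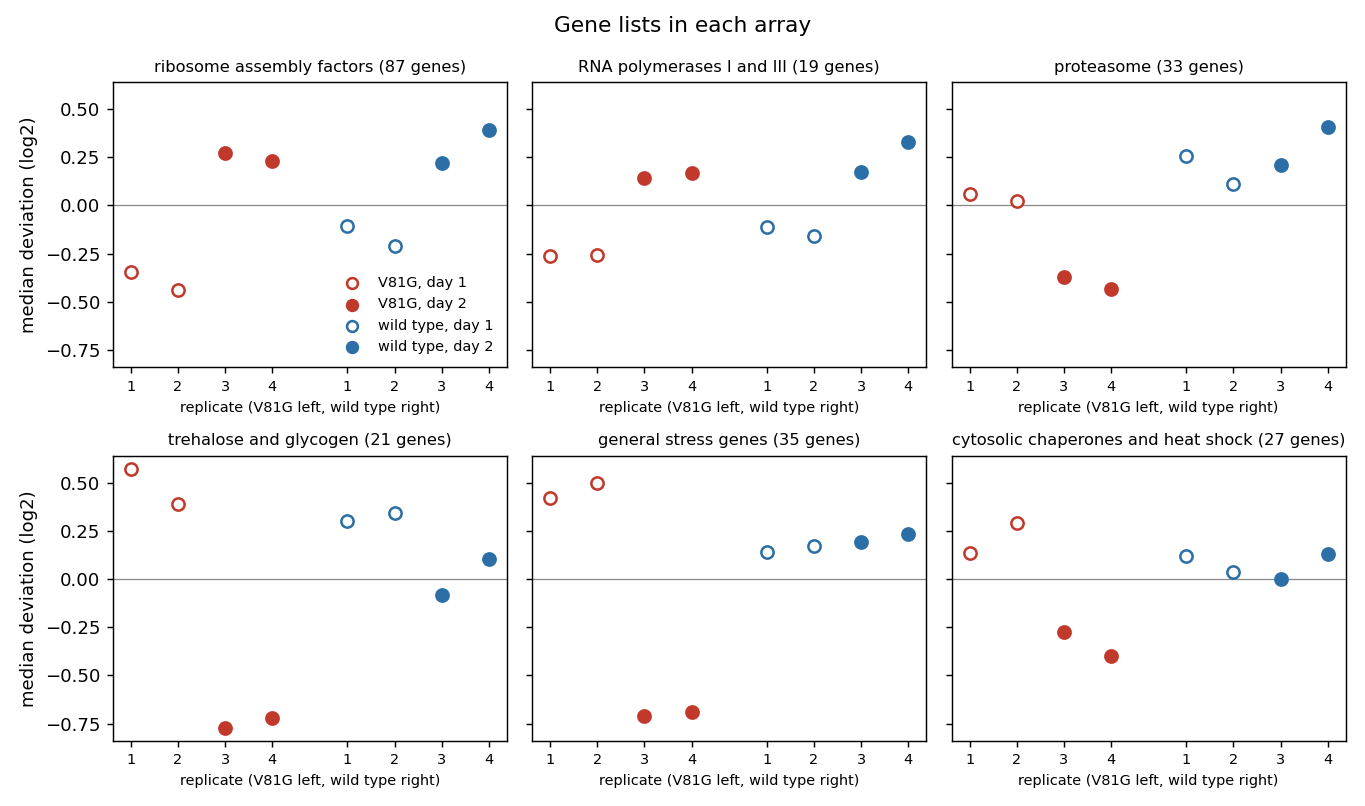
Median over the members of 6 gene lists of the log2 deviation from each gene's 8-array mean, one point per array, with open circles for day 1 and filled circles for day 2. Ribosome assembly factors and RNA polymerases I and III are higher on day 2 in both genotypes, the proteasome genes are lowest in V81G 3 and 4, and so are trehalose and glycogen, general stress and chaperone genes.

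Several groups of biosynthetic genes also had more members called higher than the 6.9% of all genes. Cytosolic aminoacyl-tRNA synthetases, which charge transfer RNAs, rose in 5 of 18 genes and in 3 after the position adjustment. None was called without V81G 3, 1 without V81G 4, and 2 without any other array but wild type 1. The 5 were FRS2, HTS1, KRS1, MES1 and TYS1. Log2 intensities of KRS1 were 12.32 and 12.11 (day 1) and 13.00 and 12.79 (day 2) in V81G, and 12.33 and 12.64 (day 1) and 13.29 and 13.23 (day 2) in wild type. KRS1, the synthetase for lysine, rose by 0.73 ± 0.12 (SE, limma adjusted p = 0.0116). Of 9 lysine synthesis genes, 4 rose: LYS4, LYS12, LYS20 and LYS21. Without V81G 3 or V81G 4 only LYS20 was called, and without V81G 1 the count was 2. LYS20 went from 12.87 and 12.87 on day 1 to 13.32 and 13.31 on day 2 in V81G, and from 12.88 and 12.90 to 13.95 and 13.96 in wild type. LYS20, a homocitrate synthase at the entry of the pathway, rose by 0.76 ± 0.14 (SE, limma adjusted p = 0.015). Its difference was 1.07 in wild type and 0.44 in V81G, and the interaction was not called (-0.62, limma adjusted p = 0.156). Genes of pyrimidine synthesis and uptake rose in 5 of 13: FUI1, FUR1, URA1, URA3 and URA7, and in 2 without V81G 3. FUR1, uracil phosphoribosyltransferase, rose by 1.06 ± 0.12 (SE, limma adjusted p = 0.00565), with 1.00 in V81G and 1.12 in wild type. URA1 rose by 1.59 in V81G and gave 0.35 in wild type, though its interaction was not called (limma adjusted p = 0.0513).

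Of 13 genes of serine, threonine and homoserine synthesis 4 rose (0 without V81G 3, 1 without V81G 4, 2 without V81G 1, V81G 2 or wild type 4), among them SHM2 by 0.75 ± 0.17 (SE, limma adjusted p = 0.0269) and SER33 by 0.75 ± 0.15 (SE, limma adjusted p = 0.0166). Branched-chain amino acid synthesis had 3 of 11 higher (0 without V81G 3, 1 without any other V81G array), with BAT1 at 0.85 ± 0.14 (SE, limma adjusted p = 0.0119) and ILV3 at 0.83 ± 0.20 (SE, limma adjusted p = 0.0321). HIS1 and HIS6 were the 2 of 7 histidine genes called, at 0.89 and 0.66 (limma adjusted p = 0.0402 and 0.0202). Neither was called without V81G 1, V81G 3 or V81G 4, and 1 of them without V81G 2 or wild type 4. HIS1 lost the call after the position adjustment (0.82, adjusted p = 0.0846), and HIS6 had a mean under the 25th percentile of probe sets. HIS1 rose by 1.54 in V81G and gave 0.24 in wild type (interaction 1.30, limma adjusted p = 0.0396). For HIS6 the differences were 0.57 in V81G and 0.76 in wild type. In fatty acid synthesis 4 of 11 genes rose: OLE1, ACC1, FAA3 and FAA4. The count was 1 without V81G 3 and 2 without any other V81G array. FAA4, an acyl-CoA synthetase, rose by 0.87 ± 0.14 (SE, limma adjusted p = 0.0103). ACC1, acetyl-CoA carboxylase, rose by 0.70 ± 0.19 (SE, limma adjusted p = 0.0388), and lost its call without V81G 3 and without 5 other arrays. KRS1 and BAT1 also lost theirs without V81G 3 (adjusted p = 0.0505 and 0.0503), as did SHM2, SER33 and ILV3, whereas LYS20, FUR1 and FAA4 kept theirs under every removal. ILV3, SHM2 and ACC1 rose more in V81G (1.28, 1.13 and 1.15) than in wild type (0.38, 0.37 and 0.25). So did BAT1 (0.99 and 0.72) and FAA4 (1.11 and 0.62). SER33 and KRS1 gave 0.82 and 0.78 in wild type against 0.68 and 0.68 in V81G. The interactions of ILV3, SHM2, ACC1, BAT1, FAA4, SER33 and KRS1 were not called.

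Transfer RNAs and mitochondrially encoded genes lost most of their calls after the position adjustment. That adjustment also removes a shift shared by genes whose probe sets have neighbouring numbers. It therefore cannot tell the order of the probe sets from a difference of the whole class. Of 91 measured transfer RNA genes 18 were called higher and none lower, at a median of 0.24, beside 6.9% and 4.83% of all genes. The count was 7 without V81G 3, 9 without V81G 2 and 10 without V81G 4 or wild type 3, and after the position adjustment 2 were higher and 2 lower, at a median of -0.16. Mitochondrially encoded genes went from 4 of 19 higher at a median of 0.30 to 1 at a median of 0.03, and to 1 also without V81G 2, V81G 3, V81G 4, wild type 2 or wild type 3 and to 2 without wild type 1. The 4 of 19 also stand beside the 6.9% of all genes called higher. Of these 19, 15 had a mean under the 25th percentile. HAP1, the heme-dependent activator, was called at 0.82 (limma adjusted p = 0.0286), but at 0.32 after the position adjustment (adjusted p = 0.327). Its 2 other probe sets gave differences of -0.00 and 0.96. Drug export and weak acid genes were split, with 4 of 21 higher and 4 lower (6.9% and 4.83% of all genes), and 2 and 2 after the position adjustment. Without V81G 3 these counts were 1 and 0, 2 and 0 without V81G 4, 2 and 1 without V81G 1, 3 and 1 without V81G 2, and 3 and 2 without wild type 1. PDR10, an ABC transporter, rose by 1.04 ± 0.13 (SE, limma adjusted p = 0.00571) and AQR1, a multidrug exporter, by 1.27 ± 0.22 (SE, limma adjusted p = 0.0131), while TPO4, a polyamine exporter, fell by 0.65 ± 0.12 (SE, limma adjusted p = 0.0162). TPO1, of the same family, lost its call after the position adjustment (-0.57, adjusted p = 0.0668).

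Within each genotype, calls were more frequent in V81G. There 340 genes were higher on day 2 (6.01% of those tested) and 582 lower (10.3%). In wild type 50 were higher (0.884%) and 3 lower (0.053%): BTN2, CRS5 and IRC18. The SD of the differences across genes was 0.493 in V81G and 0.341 in wild type, and 3409 of 5656 genes had the larger absolute difference in V81G. Of the 340 genes called higher in V81G, 311 had the same sign in wild type, and of the 582 called lower 384 did. Over all 5656 genes, 3004 had a positive difference in wild type. Across genes, which are not independent, the differences of V81G and wild type correlated at Pearson's r = 0.379 (Spearman's rho = 0.369), and both are subject to the order of the probe sets described above. After the position adjustment r was 0.354. Counts in wild type hung on single arrays. Over probe sets, 75 were called in wild type, 71 higher and 4 lower, against 0 in limma without wild type 2 (1138 at an unadjusted p under 0.05), 3 without wild type 4, 9 without V81G 3 or V81G 4, 46 without V81G 1 or V81G 2, and 458 without wild type 1. The few falls in wild type also hung on arrays: 278 of the 458 probe sets without wild type 1 were lower, and 32 of 62 without wild type 3. In V81G 1314 were called, and 249 without V81G 3, 401 without V81G 4, 668 without V81G 1 and 736 without V81G 2.

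**Figure D4:**
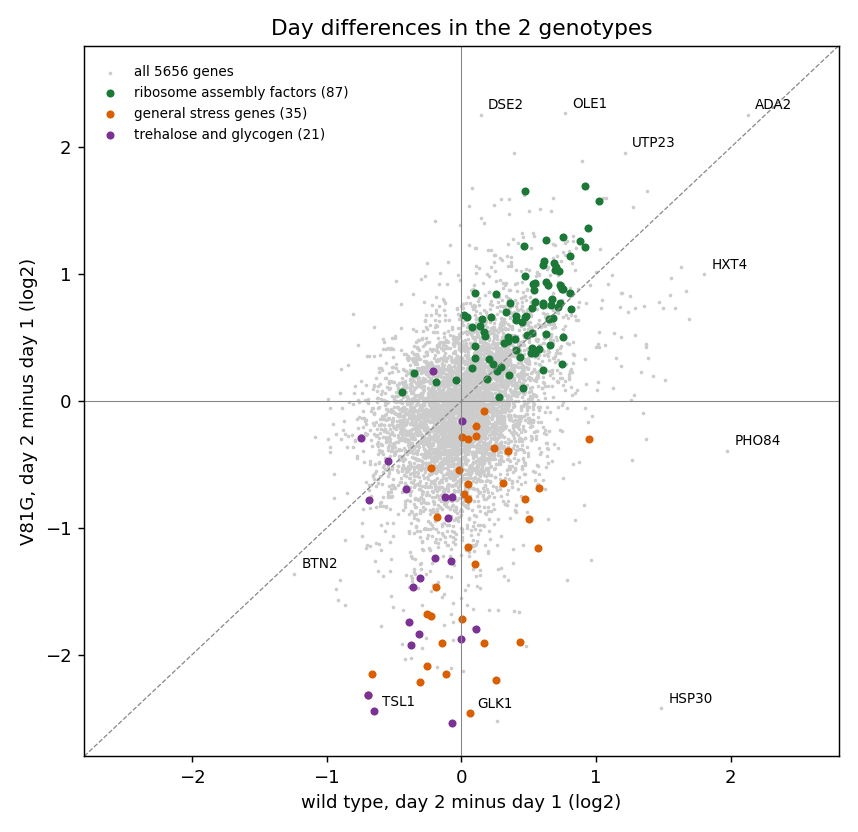
Day 2 minus day 1 (log2) of 5656 genes in V81G (vertical axis) against wild type (horizontal axis), with 3 gene lists coloured and the dashed line marking equal differences. Ribosome assembly factors lie mostly above 0 on both axes, whereas general stress and trehalose and glycogen genes reach farther below 0 in V81G than in wild type.

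The test of the difference between the genotypes, an interaction in limma, called 105 genes. In 90 of them (1.59% of those tested) the V81G difference was below the wild-type difference, and in 15 (0.265%) above it. V81G had the larger absolute difference in 96 of the 105, and the signs were opposite in 68. After the position adjustment 162 genes were called, 98 of them among the 105. In probe sets the count was 117. A fit with the fluidics station as a term takes the station's effect from wild type 3 against wild type 4 alone. It cannot show the station's part in the V81G difference. With that term the count was 3, none of them among the 117. It fell to 16 without V81G 3, to 28 without V81G 4 or wild type 4, to 29 without V81G 1, to 34 without wild type 2, to 43 without V81G 2 and to 77 without wild type 1.

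The genes with the largest negative interactions were high in V81G 1 and 2, low in V81G 3 and 4, and moved less or the other way in wild type. For HSP30 the log2 intensities were 14.17 and 14.27 in V81G 1 and 2, 11.65 and 11.96 in V81G 3 and 4, 12.28 and 12.28 in wild type 1 and 2, and 13.74 and 13.79 in wild type 3 and 4. HSP30 encodes a stress protein of the plasma membrane, and its pairs crossed: it fell by 2.42 ± 0.15 in V81G and rose by 1.48 ± 0.15 in wild type. The interaction was -3.90 ± 0.21 (SE, limma adjusted p = 0.000456). GLK1 measured 14.45 and 14.38 in V81G 1 and 2 and 11.91 and 12 in V81G 3 and 4, against 14.36 and 14.42 in wild type 1 and 2 and 14.42 and 14.49 in wild type 3 and 4 (log2 intensity). GLK1, glucokinase, stood at one level in the other arrays and far lower in V81G 3 and 4, with an interaction of -2.53 ± 0.19 (SE, limma adjusted p = 0.00281). The log2 intensity of TPS1 was 13.25 and 13.38 in V81G 1 and 2, 10.78 and 10.77 in V81G 3 and 4, 12.68 and 12.82 in wild type 1 and 2, and 12.58 and 12.78 in wild type 3 and 4. TPS1, trehalose-6-phosphate synthase, was highest in V81G 1 and 2 and far lowest in V81G 3 and 4, with an interaction of -2.47 ± 0.20 (SE, limma adjusted p = 0.00367). In V81G HXK1 was at 14.16 and 14.38 on day 1 and at 11.96 and 12.18 on day 2, and in wild type at 13.96 and 13.56 and then at 14.06 and 13.97. HXK1, hexokinase isoenzyme 1, gave -2.46 ± 0.26 (SE, limma adjusted p = 0.00684). Log2 intensities of SOD2 were 12.59 and 12.95 (day 1) and 10.75 and 10.92 (day 2) in V81G, and 12.23 and 11.60 (day 1) and 12.24 and 12.55 (day 2) in wild type. SOD2, the mitochondrial manganese superoxide dismutase, gave -2.42 ± 0.33 (SE, limma adjusted p = 0.0175), and RGI1, a gene induced in respiratory growth, gave -2.79 ± 0.30 (SE, limma adjusted p = 0.00716). Of the 12 genes with the largest interactions of either sign, 6 kept the call whichever array was left out: HSP30, RGI1, GLK1, TPS1, HXK1 and DSE2. SOD2 lost it without V81G 2, V81G 3, V81G 4 or wild type 4 (adjusted p of at most 0.0925). All 12 kept it after the position adjustment.

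**Figure D5:**
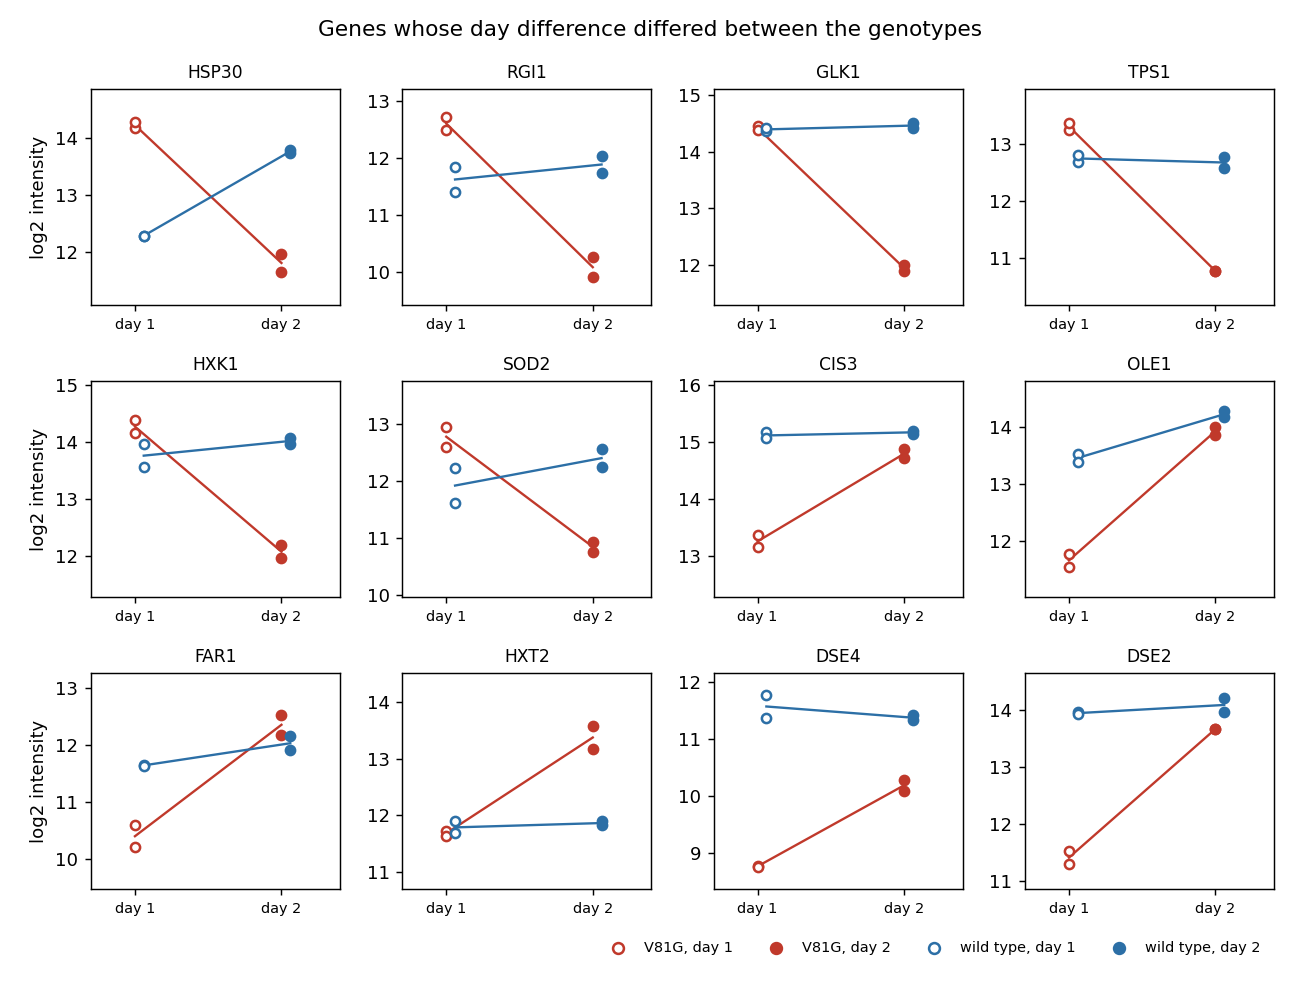
Log2 intensity by day of the 12 genes with the largest called interactions, with one point per array and lines joining the means of each genotype, and vertical axes of equal span. The V81G lines fall in the 6 genes from HSP30 to SOD2 and rise in the other 6, while among the wild-type lines only that of HSP30 changes by more than 1.

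Genes for the storage of trehalose and glycogen were among those lower in V81G on day 2. Of 21 trehalose and glycogen genes, 11 were called lower over both genotypes (4.83% of all genes were) and 16 were called lower in V81G (10.3% of all genes). None was called lower in wild type (0.053%), and 6 were called in the interaction, with V81G lower (1.59%). Medians were -1.26 in V81G and -0.31 in wild type. The list's median deviation was 0.57 and 0.39 in V81G 1 and 2, -0.77 and -0.72 in V81G 3 and 4, 0.30 and 0.35 in wild type 1 and 2, and -0.08 and 0.11 in wild type 3 and 4. The wild-type pairs did not overlap either. GLC3 went from 11.26 and 11.21 on day 1 to 9.47 and 9.41 on day 2 in V81G, and from 11.04 and 11.03 to 11.12 and 11.17 in wild type. GLC3, the glycogen branching enzyme, fell by 1.79 ± 0.13 in V81G and gave 0.11 in wild type. In V81G UGP1 was at 14.29 and 14.06 on day 1 and at 12.57 and 12.29 on day 2, and in wild type at 14.33 and 14.14 and then at 13.73 and 13.96. UGP1, which makes UDP-glucose for both stores, fell by 1.74 ± 0.17 in V81G (interaction -1.36, limma adjusted p = 0.0442, lost without any one of the 8 arrays). For GLG1, a glycogenin that primes glycogen, the difference was -0.78 in V81G and -0.69 in wild type (pooled limma adjusted p = 0.013). The choice of GLC3, UGP1 and GLG1 was made with their values in view. The pooled count of 11 was 0 without V81G 3, 1 without V81G 4, 2 without V81G 1, 3 without V81G 2 and 4 without wild type 3. The V81G count of 16 stayed between 12 and 17. The interaction count of 6 was 9 after the position adjustment, 2 without V81G 3, 3 without V81G 1, V81G 2, V81G 4, wild type 2 or wild type 4, and 4 or 5 otherwise.

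General stress genes were lower in V81G on day 2 in 23 of 35 members, and higher in none, beside 10.3% of all genes called lower in V81G. Of all genes 1.59% were called in the interaction with V81G lower. In wild type 1 was higher (0 without any one array but wild type 1) and none lower, 13 were called in the interaction, and the medians were -0.93 in V81G and 0.05 in wild type. The list's median deviation was 0.42 and 0.50 in V81G 1 and 2, -0.71 and -0.69 in V81G 3 and 4, and between 0.14 and 0.24 in the 4 wild-type arrays. Log2 intensities of STF2 were 12.55 and 12.97 (day 1) and 10.96 and 10.77 (day 2) in V81G, and 12.77 and 12.49 (day 1) and 13.09 and 13.04 (day 2) in wild type. STF2, which binds the mitochondrial ATP synthase, fell by 1.90 ± 0.19 in V81G (interaction -2.33, limma adjusted p = 0.00768, lost without wild type 4). OM45 went from 10.77 and 10.67 on day 1 to 9.03 and 8.97 on day 2 in V81G, and from 10.87 and 10.80 to 10.86 and 10.83 in wild type. OM45, a protein of the mitochondrial outer membrane, fell by 1.72 ± 0.13 in V81G and gave 0.00 in wild type. HSP26, a small heat shock chaperone, fell by 1.16 ± 0.14 in V81G and measured 0.57 in wild type (adjusted p = 0.105). STF2, OM45 and HSP26 were likewise named after their values were seen. Over both genotypes 7 of the 35 were called lower and none higher, beside 4.83% of all genes called lower. That pooled count was 0 without V81G 2, V81G 3 or V81G 4, 1 without V81G 1 and 2 without wild type 3. The V81G count of 23 was 15 without V81G 3, 16 without V81G 4, 19 without V81G 2 and 20 without V81G 1. The interaction count of 13 was 5 without V81G 3, 6 without V81G 4, 7 without wild type 4 and 8 without V81G 1, V81G 2 or wild type 2. After the position adjustment 24 were lower in V81G and 17 were called in the interaction.

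Cytosolic chaperones were lower in V81G in 14 of 27 genes, beside 10.3% of all genes (6 without V81G 3, 8 without V81G 2, 9 without V81G 4), at a median of -0.61, beside 0.00 in wild type. Of 33 measured genes for proteasome subunits and their activator RPN4, 8 were lower in V81G at a median of -0.46, again beside 10.3% of all genes, and the median in wild type was 0.17. In the interaction 1, RPN4, was called, and 3 after the position adjustment. RPN4 lost that call without 7 of the 8 arrays, all but wild type 1 (adjusted p of at most 0.182). In V81G RPN4 was at 12.19 and 12.42 on day 1 and at 10.65 and 10.41 on day 2, and in wild type at 11.24 and 10.62 and then at 10.77 and 10.85. RPN4 fell by 1.77 ± 0.22 in V81G. The V81G count of 8 was 1 without V81G 2, V81G 3 or V81G 4 and 4 without V81G 1. In the tricarboxylic acid and glyoxylate cycles 24 genes were measured, and in V81G 4 were higher and 6 lower (6.01% and 10.3% of all genes), and 4 and 4 after the position adjustment. Without V81G 3 these counts were 1 and 3, 2 and 3 without V81G 2, 3 and 3 without V81G 4, and 4 and 4 without V81G 1. Log2 intensities of SDH2 were 13.01 and 13.01 (day 1) and 11.21 and 11.53 (day 2) in V81G, and 13.92 and 13.78 (day 1) and 13.92 and 14.17 (day 2) in wild type. SDH2, a subunit of succinate dehydrogenase, fell by 1.65 ± 0.17 in V81G (interaction -1.85, limma adjusted p = 0.0129), while CIT2, the peroxisomal citrate synthase, rose over both genotypes by 1.01 ± 0.16 (SE, limma adjusted p = 0.0103). NDI1, the internal NADH dehydrogenase, fell by 1.31 ± 0.16 in V81G with an interaction of -1.61 ± 0.22 (SE, limma adjusted p = 0.0175). The interactions of SDH2 and NDI1 were each lost without 5 of the 8 arrays. RPN4, SDH2, CIT2 and NDI1 were chosen with their values in view.

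The positive interactions were led by a cell wall gene. DSE2 went from 11.30 and 11.52 on day 1 to 13.67 and 13.67 on day 2 in V81G, and from 13.96 and 13.94 to 13.98 and 14.21 in wild type. DSE2, a daughter-specific cell wall protein, was lowest in V81G 1 and 2, and V81G 3 and 4 came up to just under the wild-type arrays. The rise in V81G was 2.26 ± 0.15 and the interaction 2.12 ± 0.21 (SE, limma adjusted p = 0.0064). In V81G SCW11 was at 8.73 and 9.06 on day 1 and at 10.40 and 10.59 on day 2, and in wild type at 10.79 and 10.33 and then at 11.64 and 11.62. SCW11, a glucanase-like wall protein, rose by 1.34 ± 0.16 (SE, limma adjusted p = 0.00565) over all 8 arrays. CTS1, a chitinase of the cell wall, rose by 1.59 ± 0.15 in V81G and gave 0.29 in wild type (interaction 1.30, limma adjusted p = 0.0318). That interaction was lost without any one of the 8 arrays. CTS1 was named after its values were seen.

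The other large positive interactions were in DSE4, HXT2, FAR1, OLE1 and CIS3, between 1.48 and 1.62. Log2 intensities of FAR1 were 10.20 and 10.59 (day 1) and 12.18 and 12.53 (day 2) in V81G, and 11.65 and 11.63 (day 1) and 11.91 and 12.15 (day 2) in wild type. FAR1, an inhibitor of the cyclin-dependent kinase in pheromone arrest, rose by 1.96 ± 0.19 in V81G. CIS3 went from 13.36 and 13.16 on day 1 to 14.72 and 14.88 on day 2 in V81G, and from 15.17 and 15.07 to 15.15 and 15.20 in wild type. CIS3, a mannoprotein of the cell wall, rose by 1.54 ± 0.15 in V81G and gave 0.06 in wild type. Its wild-type values lay close under the highest log2 intensity of the data, 15.43, which leaves little room for a rise. The part of this limit in the interaction was not tested. HXT2, a glucose transporter, rose by 1.68 ± 0.17 in V81G and gave 0.08 in wild type. Each of these 5 lost its call without at least 6 of the 8 arrays in turn. Mitochondrial ribosomal proteins were higher in V81G in 10 of 67 genes, and in 18 after the position adjustment, beside 6.01% of all genes. Their median was 0.35, and -0.07 in wild type. That count was 0 without V81G 4, 1 without V81G 3, 3 without V81G 2 and 5 without V81G 1. Mitochondrial import factors and matrix chaperones were higher in V81G in 10 of 28 at a median of 0.43, beside 0.04 in wild type, and in 1, 2, 4 and 5 without V81G 4, 3, 1 and 2 in turn.

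PHO84, GIT1 and HXT3 were called in wild type and in the interaction, and not in V81G. For PHO84 the log2 intensities were 10.43 and 10.29 in V81G 1 and 2, 9.92 and 10.02 in V81G 3 and 4, 10.20 and 10.14 in wild type 1 and 2, and 12.06 and 12.23 in wild type 3 and 4. PHO84, the high-affinity phosphate transporter, rose by 1.97 ± 0.14 in wild type, and its V81G difference was -0.39 (adjusted p = 0.105). The interaction was -2.36 ± 0.20 (SE, limma adjusted p = 0.00367), and it was called under every removal of an array, whereas the rise within wild type lost its call without wild type 2. Log2 intensities of GIT1 were 9.65 and 9.76 (day 1) and 9.64 and 9.79 (day 2) in V81G, and 8.50 and 8.79 (day 1) and 9.80 and 10.00 (day 2) in wild type. GIT1, a glycerophosphoinositol permease, rose by 1.26 ± 0.16 in wild type (interaction -1.25, limma adjusted p = 0.046) but lost the interaction call without any one of the 8 arrays. HXT3 went from 12.95 and 13.13 on day 1 to 12.47 and 12.67 on day 2 in V81G, and from 9.97 and 9.75 to 10.99 and 11.27 in wild type. HXT3, a low-affinity glucose transporter, rose by 1.27 ± 0.17 in wild type against -0.47 in V81G (interaction -1.73, limma adjusted p = 0.0175), and it lost the interaction call without 6 of the 8 arrays. Of 15 phosphate regulon genes, 1 was higher in wild type and 2, PHO84 and PHM8, were called in the interaction (only PHO84 without any one array but wild type 1). Over all genes 0.884% were called higher in wild type and 1.59% in the interaction with V81G lower. PHO84, PHM8, GIT1 and HXT3 were named after their values were seen.

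Mating-type genes, eIF5A-related genes and strain markers complete the account. Of the 4 genes specific to alpha cells, STE3, MF(ALPHA)1 and MF(ALPHA)2 were called higher and SAG1 was not, beside 6.9% of all genes called higher. The count was 1 without V81G 3 and 2 without V81G 4. For MF(ALPHA)1 the log2 intensities were 13.26 and 13.32 in V81G 1 and 2, 14.36 and 14.51 in V81G 3 and 4, 14.17 and 14.05 in wild type 1 and 2, and 14.77 and 14.87 in wild type 3 and 4. MF(ALPHA)1 encodes the alpha pheromone precursor and rose by 0.92 ± 0.12 (SE, limma adjusted p = 0.00718), in each genotype without overlap. Its paralog MF(ALPHA)2 may share signal with it, which was not tested. None of 7 genes specific to a cells was called, and their median was -0.29. Among eIF5A-related genes, DYS1 and LIA1 encode the enzymes that make hypusine, the modified residue of eIF5A. LIA1 rose by 0.51 ± 0.12 (SE, limma adjusted p = 0.0262). DYS1 was called at 0.55, but at 0.33 after the position adjustment (adjusted p = 0.109). DCP2, the catalytic subunit of the decapping enzyme, was called at -0.53 and likewise lost the call (-0.46, adjusted p = 0.0641). None of these 3 was called without any one of the 4 V81G arrays.

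Of 8 strain marker genes, MET17 and URA3 rose over both genotypes (6.9% of all genes did), and URA3 lost its call without V81G 3. URA3 measured 10.43 and 10.61 in V81G 1 and 2 and 11.38 and 11.72 in V81G 3 and 4, against 13.17 and 13.05 in wild type 1 and 2 and 13.59 and 13.63 in wild type 3 and 4 (log2 intensity). URA3, orotidine-phosphate decarboxylase, was far lower in V81G than in wild type on both days and rose by 0.77 ± 0.15 (SE, limma adjusted p = 0.0159). MET17 went from 10.99 and 11.26 on day 1 to 12.23 and 12.21 on day 2 in V81G, and from 13.40 and 13.35 to 14.01 and 14.38 in wild type. MET17 rose by 0.96 ± 0.13 (SE, limma adjusted p = 0.00732). HIS3 had 2 probe sets that disagreed. In V81G HIS3 was at 13.07 and 13.12 on day 1 and at 11.46 and 11.91 on day 2, and in wild type at 13.10 and 13.04 and then at 13.72 and 14.00. This brighter probe set fell by 1.41 ± 0.18 in V81G and measured 0.79 in wild type (interaction -2.20, limma adjusted p = 0.00858, lost without V81G 3 or wild type 4). The dimmer one rose over both genotypes by 1.69 ± 0.16 (SE, adjusted p = 0.00412), with an interaction of 0.56 (adjusted p = 0.355). ADE2, LEU2, LYS2, TRP1 and CAN1 were not called over both genotypes, at differences of 0.15, 0.17, 0.31, 0.51 and 0.66.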

How the data were processed

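RNA of 8 yeast cultures was labelled by in vitro transcription of biotinylated cRNA from 6 µg of total RNA and hybridised to Affymetrix YG_S98 arrays, 1 array a sample, per the labels' protocols. The submitters' processing notes name RMA with no version. The values used were the intensities in the authors' deposited series matrix, on a linear scale, and no label, note or header says whether they were scaled or centred further. Log2 was taken of all 9335 probe sets. Then 60 control probe sets were set aside and 9275 tested. Of these, 6504 had 1 gene symbol in the platform annotation, 328 had several and 2443 were not listed there, so these last are unnamed here. Symbols were updated through RefSeq (assembly R64). A gene was taken as its probe set of highest mean, giving 5656 genes, 315 of them with several probe sets.

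Arrays were grouped by the replicate number in their labels. The day difference was fitted in limma 3.58.1 (R 4.3.3) with day and genotype as terms (5 residual degrees of freedom). Differences within a genotype and the interaction, V81G minus wild type, came from a fit of 4 cell means (4 residual degrees of freedom). All p-values are two-sided, with Benjamini-Hochberg adjustment over 9275 probe sets, and calls are at an adjusted p under 0.05. The code of the fits was tested on simulated arrays with independent noise for each probe set. These held no trend along the probe-set number and no station effect, so the test cannot show how such effects bear on the calls. Whether the arrays of a genotype are separate cultures rests on the sample titles, which call them biological replicates, and on the design's wording of 4 strains. The p-values measure only the spread between these arrays, whose number limits the precision.

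The 66 gene lists were described by counts and medians, and 1 of them is not reported here. Named genes were the 10 largest rises and 10 largest falls with no overlap of pairs in either genotype, the 6 largest interactions each way, up to 2 rises and 2 falls of each list with at least 4 measured members and 25% called, HYP2, ANB1 and the strain markers, and genes chosen after their values were seen as examples of a list, a call or a small count. The comparison, the lists and the rules were chosen with earlier results of these data known. Alternatives were other normalizations, intensity filters, variance models, the fluidics station or replicate number as a term, each array left out, and, chosen after seeing the data, the position adjustment and crossed replicate numbers. Same-numbered arrays of the genotypes deviated from their group means with a correlation of -0.12 on day 1 and 0.11 on day 2. Each value compares 1 difference between arrays per genotype and is subject to the order of the probe sets. It gave no sign of a pairing by number but cannot exclude one. No sequence is shown.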

Additional observations from a re-analysis of the deposited data

Results flagged for a closer look

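In 35 named genes the day difference in V81G and that in wild type differed by the limma interaction test (adjusted p under 0.05 over 9275 probe sets), and the value after each gene is the V81G difference minus the wild-type difference in log2 units. Storage sugar and hexose phosphorylation genes with a negative interaction were TPS1 (-2.47), TSL1 (-1.80), GLC3 (-1.91), UGP1 (-1.36), GLK1 (-2.53) and HXK1 (-2.46). Stress and respiratory genes with a negative interaction were HSP30 (-3.90), HSP26 (-1.73), RGI1 (-2.79), STF2 (-2.33), MSC1 (-2.07), RTC3 (-1.65), OM45 (-1.72), SOD2 (-2.42), CYC7 (-1.91), NDI1 (-1.61), SDH2 (-1.85), KGD2 (-1.55) and RPN4 (-1.64). Phosphate, transporter and marker genes with a negative interaction were PHO84 (-2.36), PHM8 (-2.22), HXT3 (-1.73), GIT1 (-1.25) and HIS3 (-2.20). The interaction was positive for the cell wall genes DSE2 (2.12), DSE4 (1.62), CTS1 (1.30) and CIS3 (1.48). It was positive also for HXT2 (1.61), RNR1 (1.30), YOX1 (1.06), FAR1 (1.57), OLE1 (1.50), HIS1 (1.30) and ECM13 (1.00). All 35 kept the call after the position adjustment, and 9 kept it whichever array was left out: DSE2, HXK1, TPS1, GLK1, RGI1, HSP30, CYC7, GLC3 and PHO84. None kept it with the fluidics station as a term. That term rests on wild type 3 against wild type 4 alone, so a lost call there cannot show the station's part. In V81G the station changed with the day, and its part in these differences was not tested. HIS3 has a second probe set with an interaction of 0.56 (adjusted p = 0.355). No group had more than 2 arrays a day, so no single array could be tested for standing apart from its group.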

How the results depend on the processing

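Over probe sets, the main counts were 1194 for the day difference over both genotypes, 1314 in V81G, 75 in wild type and 117 for the interaction. The first moved by over 1.5 times to 35 with no genotype term, to 1800 when the differences of both genotypes were averaged in the 4-cell fit, to 2181 with the replicate number as a random replicate block (consensus correlation -0.21), and to 675 and 755 with the position adjustment at windows of 101 and 201. Leaving out 1 array gave 134 to 1129. Its split of 62.7% higher was 74.5% with arrays centred on their medians (993 higher, 339 lower) and 54.0% with the fluidics station as a term (844 and 718). The V81G count was 31 with the station as a term and 249 to 1405 without 1 array. In wild type it was 159 with median centring, 140 for probe sets above the median intensity, 146 with an intensity trend and robust variance, 3 with the station, 147 and 125 with the position adjustment at windows of 51 and 201, and 0 to 458 without 1 array. The count of 0 in limma was without wild type 2 (1138 at an unadjusted p under 0.05). Where 1 array was left out, its lone partner was assumed to vary like the other groups. The interaction count was 272 above the median intensity, 187 with trend and robust variance, 3 with the station, and 185, 319 and 239 with the position adjustment at windows of 101, 51 and 201. It was 16 to 85 without 1 array. With the replicate number as a fixed replicate block it was 19, and 28 with the day 1 numbers crossed. A lost call there is no weaker effect, since the arrays are known to share only a number. The counts with the station in V81G, in wild type and for the interaction have a like limit. In them the station term rests on wild type 3 against wild type 4 alone. The wild-type split of 71 higher and 4 lower was 180 and 278 without wild type 1, and 30 and 32 without wild type 3. No called difference of a named gene changed sign. The day difference of PHM8 over both genotypes, which was not called, was -0.14, and it was 0.14 with the station as a term, 0.16, 0.12 and 0.03 without V81G 2, 3 and 4, and as low as -0.49, without wild type 2. Of comparisons of single named genes, 1478 of the day difference kept their side of the threshold, 251 lost the call, 31 gained it and 4 were those of PHM8, and of the interaction 437 kept and 226 lost it. Median centring turned the sign of the median of 4 lists and quantile normalization that of 5, none of them among the lists described above except drug export. The causes were not tested. Brightness over background limits the 943 of 5656 genes with a mean under the 25th percentile of probe sets.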

Other observations

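Genes of the actin cytoskeleton and of cell polarity were lower in V81G on day 2 in 11 of 33 members, beside 10.3% of all genes. Their median was -0.37, and -0.07 in wild type. They included ARP3 (-1.06, limma adjusted p = 0.00615) and ARC40 (-0.85, adjusted p = 0.00899), both in the Arp2/3 complex that nucleates branched actin, and LAS17, its activator (-1.17, adjusted p = 0.00308). No member was called in the interaction. The V81G count was 1 without V81G 3, 4 without V81G 1 or V81G 4 and 5 without V81G 2. Oxidative stress genes were lower in V81G in 6 of 27 members, beside 10.3% of all genes. These were SOD2, CTT1 (cytosolic catalase, -1.15, adjusted p = 0.00611), GRX1 and GRX2 (glutaredoxins, -0.80 and -1.13), PRX1 (mitochondrial peroxiredoxin, -1.09) and TRX3 (mitochondrial thioredoxin, -0.98). That count was 1 without V81G 3 and 3 without V81G 4.

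Genes of the G1 and S phases were higher in V81G on day 2 in 6 of 29 members, beside 6.01% of all genes. RNR1, the large subunit of ribonucleotide reductase, rose by 1.44 in V81G (limma adjusted p = 0.0014), with an interaction of 1.30 (adjusted p = 0.0373), and YOX1, a transcriptional repressor of the cell cycle, by 0.78 (interaction 1.06, adjusted p = 0.0449). Both interactions lost their call without any one of the 8 arrays. The count of 6 was 1 without V81G 3, 2 without V81G 2 or V81G 4 and 3 without V81G 1. Both measured genes for histone H2B rose in V81G, HTB2 by 1.19 and HTB1 by 0.83 (adjusted p = 0.00401 and 0.00811), and the count of 2 was 1 without V81G 1, V81G 3 or V81G 4. They are near copies of each other, so the probe sets may share RNA. Autophagy genes were lower in V81G in 6 of 19 members, beside 10.3% of all genes (1 without V81G 3 or V81G 4, 2 without V81G 1, 3 without V81G 2), among them ATG8, the ubiquitin-like protein of autophagosomes, at -1.28 (adjusted p = 0.00392). The genes named here were chosen with their values in view. In these groups day, strain, culture and, in V81G, fluidics station cannot be told apart.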
